A study of Mus musculus with 26 samples.

Results

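The data describe 10 genes of Polycomb repressive complex 2 (PRC2) in mouse haematopoietic stem cells (HSCs): Ezh2, Ezh1, Eed, Suz12, Rbbp4, Phf1, Mtf2, Phf19, Jarid2 and Aebp2. The genes were chosen by name, and all 10 of 10 were among the 23416 genes of the expression table. The 26 libraries were made by Smart-Seq2, a full-length RNA-seq method for small numbers of cells, from HSCs sorted out of bone marrow. Control libraries (wild-type, n = 5) stood beside 3 mutant groups of n = 7 each: JAK2V617F, Ezh2 loss, and the double mutant, which carries both. The double-mutant label writes the JAK2 allele with a digit missing, and it was read as JAK2V617F. JAK2V617F is the activating kinase mutation of myeloproliferative neoplasm. The sources used here give neither the Cre or transgene, nor the deleted part of Ezh2, nor the age, sex or strain of the mice. Nothing says that libraries of a group came from separate mice, so a p-value here reflects the spread of libraries, which may be technical. Library titles come in 2 styles, with a running number before the group code (number-first, n = 15) or after it (number-last, n = 11), and the labels do not say what the style stands for. Number-first titles made up 4 of 5 control, 2 of 7 JAK2V617F, 2 of 7 Ezh2 loss and 7 of 7 double-mutant libraries. The question was whether other PRC2 subunits, above all Ezh1, shift where Ezh2 is lost.

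PRC2 places methyl groups on lysine 27 of histone H3, a mark of silenced genes. Ezh2 and its paralogue Ezh1 are the alternative catalytic subunits, Eed binds the finished mark and Suz12 is the scaffold, and a complex without Eed or Suz12 is inactive. Ezh1 is the weaker methyltransferase and is known as the form kept in resting cells, while Ezh2 is known as the form of dividing cells. Rbbp4 is a histone-binding protein shared with other chromatin complexes. The Polycomb-like proteins Phf1, Mtf2 and Phf19 define one type of PRC2, and Jarid2 and Aebp2 define the other. Loss of Ezh2 is known to accelerate myelofibrosis in mouse models driven by JAK2V617F.

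The Ezh2 gene lies on chr6:47530139-47595341 and the Ezh1 gene on chr11:101191115-101226463, both on the minus strand, while Suz12 lies on the plus strand at chr11:79993106-80034123 (GRCm38, GENCODE M21). Promoters of these 3 genes are shown because Ezh2 is the gene lost by design, Ezh1 is its paralogue, and Suz12 had the highest correlation with Ezh2 among the other subunits. Each sequence runs 5′ to 3′ on the gene's strand from 250 bases before to 50 bases after a start site (RefSeq, GRCm38.p6, in which all 10 genes had at least 1 promoter). Capitals mark E2F-type octamers (TTTGGCGC, TTTCGCGC, TTTCCCGC or TTTGCCGC) and CCAAT boxes (CCAAT), each on either strand, and no capitals overlap another match.
Ezh2 promoter, chr6:47594981-47595280: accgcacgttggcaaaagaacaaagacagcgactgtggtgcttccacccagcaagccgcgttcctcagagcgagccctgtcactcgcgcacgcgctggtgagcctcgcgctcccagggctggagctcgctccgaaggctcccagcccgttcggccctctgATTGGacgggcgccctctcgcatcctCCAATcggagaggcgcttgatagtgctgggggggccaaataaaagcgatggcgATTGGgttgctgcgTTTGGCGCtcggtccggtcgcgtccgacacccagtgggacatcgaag
Ezh1 promoter, chr11:101226414-101226713: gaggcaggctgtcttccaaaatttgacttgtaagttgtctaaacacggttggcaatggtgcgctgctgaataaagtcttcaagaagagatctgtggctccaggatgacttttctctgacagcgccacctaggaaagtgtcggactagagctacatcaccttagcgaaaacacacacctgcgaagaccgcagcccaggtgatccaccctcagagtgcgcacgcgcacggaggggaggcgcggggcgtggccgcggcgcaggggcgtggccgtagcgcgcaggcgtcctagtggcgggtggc
Suz12 promoter, chr11:79992856-79993155: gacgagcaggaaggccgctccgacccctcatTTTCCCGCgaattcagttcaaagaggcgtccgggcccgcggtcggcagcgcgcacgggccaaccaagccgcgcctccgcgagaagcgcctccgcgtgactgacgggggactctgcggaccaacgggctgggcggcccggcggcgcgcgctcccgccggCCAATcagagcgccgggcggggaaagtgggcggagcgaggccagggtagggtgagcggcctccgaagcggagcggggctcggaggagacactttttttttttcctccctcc
The Ezh2 window held TTTGGCGC at base 4 of the transcribed part and 3 CCAAT boxes. The Suz12 window held TTTCCCGC at position -219 from the start and a CCAAT box at position -61. Neither motif was found in the Ezh1 window. Over the 14 start-site windows of the 10 genes, an E2F-type octamer was found in 3 (Ezh2, Suz12 and Phf19), against 2.26% of all 32851 mouse promoter windows of this length. A CCAAT box was found in 8 of the 14 windows, against 37.4% of all. A TATA box (TATAAA) was found in 1 window, that of Jarid2, against 13.6% of all.

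Estimated depth was 7.8 to 29.2 M reads a library (M, 10 to the power of 6), and 9223 to 11007 genes reached 1 RPKM (reads divided by gene length and by the library's read total). The 10 HSC markers checked, among them Kit, Ly6a, Slamf1 and Procr, were all present, and Fgd5 alone was listed at 0 in 1 library. Neutrophil markers (8 of 8 in the table) summed to 39.5 to 388 RPKM in control, 72.9 to 17700 in JAK2V617F, 404 to 38200 in Ezh2 loss and 43.2 to 52100 in double-mutant libraries. Of these, Lcn2, Retnlg and Mmp8 were at 0 in 16, 15 and 18 libraries. Erythroid markers (7 of 9 in the table) summed to 5.75 to 22.3 RPKM in control, 2.46 to 27.1 in JAK2V617F, 30.8 to 6180 in Ezh2 loss and 5.29 to 42.1 in double-mutant libraries, with Hba-a1 and Hba-a2 at 0 in 26 of 26 libraries and Alas2 at 0 in 14. Monocyte and macrophage markers (4 of 5 in the table) summed to 0 to 0.0212 RPKM in control, 0 in JAK2V617F, 0 to 22.4 in Ezh2 loss and 0 to 112 (median 4.36) in double-mutant libraries. T and NK cell markers (7 of 7) reached 18.5, 24.6, 13.8 and 106 RPKM in these groups, in the same order, and B cell markers (6 of 6) ran from 50.1 to 215 RPKM with overlap of all groups. The part of these other cells in the PRC2 values was tested only with the neutrophil markers as a covariate. Subunit values with this covariate are given for Ezh2, Phf1, Aebp2 and Jarid2, and not for Ezh1 or the other subunits.

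Control HSCs expressed the 10 subunits over a wide range. RPKM is per length, but the lengths used are not given. Whole-read steps in the values implied 2667 bases for Ezh2, 4194 for Ezh1 and 4407 for Rbbp4. GENCODE M21 exons give 6678, 7440 and 8744 bases for these genes. For Mtf2 and Suz12 the implied lengths were 5230 and 4373 bases, against 5698 and 4945. The order of genes and the steps between them therefore depend on the lengths used. Mean control levels ran in the order Eed (70.7 ± 18.3 RPKM, SD, n = 5), Rbbp4 (41.8 ± 10.7), Mtf2 (36.7 ± 9.86), Ezh2 (23.7 ± 10.4), Suz12 (11.6 ± 7.7), Ezh1 (10.3 ± 9.28), Aebp2 (9.46 ± 1.84), Phf1 (7.39 ± 4.59), Jarid2 (4.3 ± 1.71) and Phf19 (1.15 ± 1.6). The steps from Eed to Rbbp4, Mtf2 to Ezh2, Ezh2 to Suz12 and Jarid2 to Phf19 were larger than the SD of either gene, and the other neighbours did not differ beyond their spread. Eed stood first in all 4 groups, and Rbbp4 and Mtf2 held the next places. Ezh2 came next in control, JAK2V617F and Ezh2 loss libraries, and in double-mutant libraries Ezh1 (17.9 ± 13.5, n = 7) was level with Ezh2 (17.4 ± 9.07, n = 7). Phf19 was the least expressed in control, Ezh2 loss and double-mutant libraries, reached 1 RPKM in 14 of 26 libraries and was listed at 0 in 6.

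**Figure D1:**
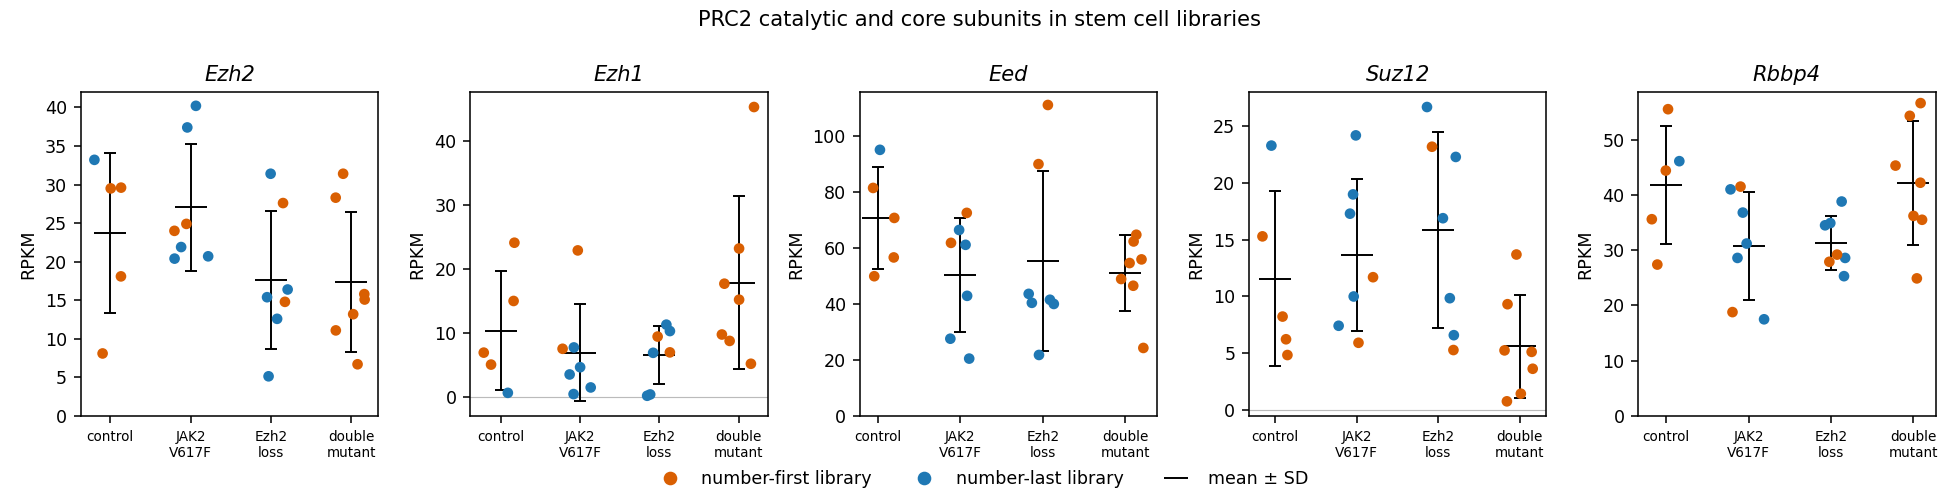
Level of the 2 catalytic and 3 core PRC2 subunits in RPKM (vertical axis) in each of 26 libraries, by group (horizontal axis); points are libraries coloured by title style, and lines are the mean ± SD of a group. Double-mutant libraries include the lowest Suz12 values (0.759 and 1.43) and the highest Ezh1 value (45.3), and the Ezh2 values of the 4 groups overlap.

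No PRC2 subunit passed in any of the 6 genotype comparisons with title style in the limma model. For the effect of Ezh2 loss averaged over both JAK2 backgrounds, 0 of 10 passed at adjusted p under 0.05 and 1 (Aebp2) had an unadjusted p under 0.05, against 0.0578% and 8.66% of all 12116 tested genes. Subunits above and below 0 numbered 5 and 5, with a median of -0.083 against -0.008 for all tested genes. When Ezh2 loss was set against control, 0 of 10 were under 0.05 unadjusted (0% of all genes passed and 6.07% were under 0.05 unadjusted). In the double mutant against JAK2V617F there was 1, Phf1 (0.033% and 8.06%), and in the double mutant against control also 1, Aebp2 (0.00825% and 6.17%). JAK2V617F against control had 1, Phf1 (0% and 4.14%), and the interaction, the double-mutant effect beyond the sum of the single ones, had 2, Phf1 and Rbbp4 (0% and 6.09%). These comparisons share libraries and are not independent.

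**Figure D2:**
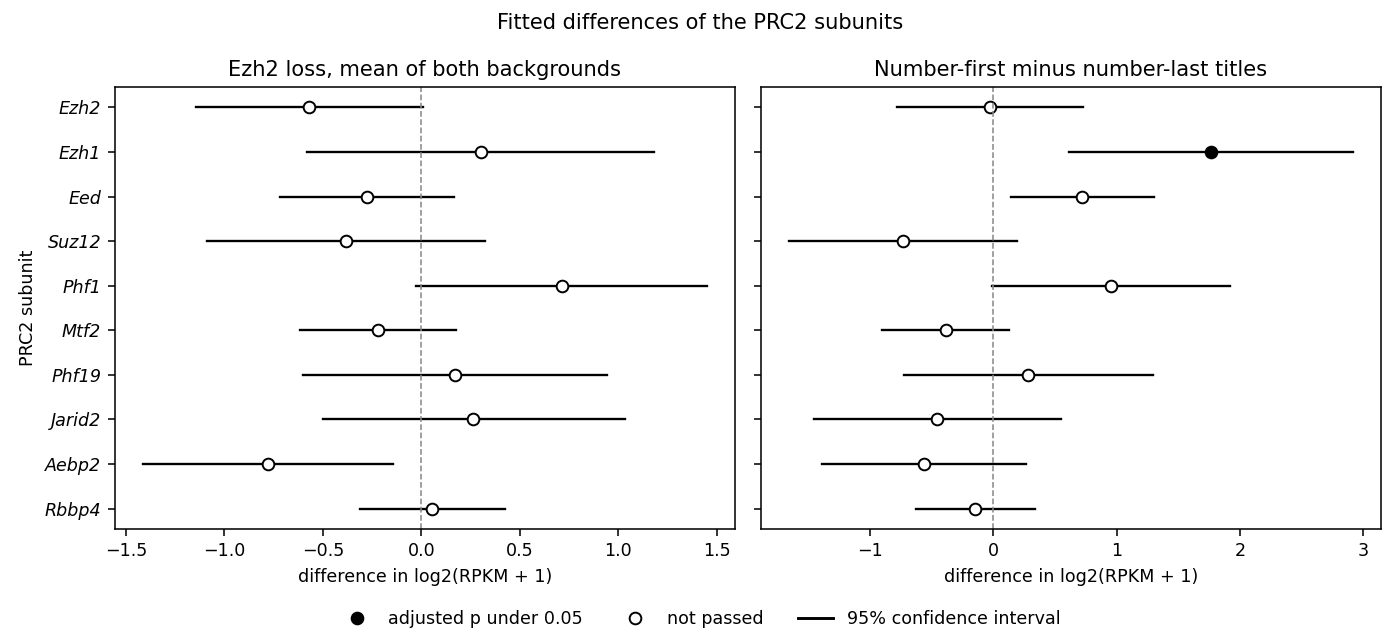
Fitted difference in log2(RPKM + 1) (horizontal axis) of each PRC2 subunit (vertical axis) for Ezh2 loss averaged over both JAK2 backgrounds (left) and for number-first minus number-last titles (right); lines are 95% confidence intervals and the filled point passed at adjusted p under 0.05. Ezh1 at 1.76 in the right panel is the only filled point, and in the left panel Aebp2 lies farthest below 0 (-0.78) and Phf1 farthest above (0.71).

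Ezh2 RNA was lower on average in both groups labelled as Ezh2 loss, without passing the test, and it was present in every library of those groups. Control libraries had Ezh2 at 18.1, 29.6, 29.5, 8.11 and 33.2 RPKM. JAK2V617F libraries ran from 20.4 to 40.2 (median 24), Ezh2 loss libraries from 5.15 to 31.4 (median 15.4) and double-mutant libraries from 6.71 to 31.4 (median 15.1). Values of Ezh2 loss overlapped control, with 1 of 7 libraries under the lowest control and 6 of 7 under the control median. In the double mutant, 5 of 7 libraries lay below the lowest JAK2V617F library. The mean effect of Ezh2 loss over both JAK2 backgrounds, with title style in the model, was -0.57 on the log2(RPKM + 1) scale (SE 0.28, 95% confidence interval -1.15 to 0.008, limma adjusted p = 0.589). By an exact two-sided permutation test of this gene alone, which reassigned Ezh2 loss within title style and took no account of JAK2 status, the difference was -0.58 (p = 0.0409, not adjusted, 2312310 arrangements). Its number-last part set 5 Ezh2 loss libraries against 5 JAK2V617F libraries and 1 control. With the exact two-sided test held within title style and JAK2 background, a choice made after seeing the data, the difference over the 21 libraries it can use was again -0.58 (p = 0.157, not adjusted, 3240 arrangements). Within number-first libraries alone the mean effect was -0.27 (adjusted p = 0.936). There Ezh2 was at 21.2 RPKM in Ezh2 loss (n = 2) and 21.3 in control (n = 4), a fitted difference of 0.08 (SE 0.592). It was at 17.4 in the double mutant (n = 7) and 24.5 in JAK2V617F (n = 2). Each library has 1 Ezh2 value for the gene, with none by exon. Transcripts that lack a deleted exon could still be counted, which was not tested, and the level does not check the labels.

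Other cells were uneven beside the Ezh2 result. The Ezh2 loss library with the lowest Ezh2 (5.15 RPKM) had 30000 RPKM of neutrophil markers, but the one with the highest (31.4) had 38200. Among double-mutant libraries the lowest Ezh2 (6.71) came with 64.7 RPKM of neutrophil markers. With the neutrophil markers as a covariate the mean Ezh2 effect was -0.69 (limma adjusted p = 0.671). In bulk libraries of this kind, fewer cells that express a gene and less RNA per cell cannot be told apart.

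Ezh1 was not detectably shifted where Ezh2 was lost, and its only called difference was by title style. Control libraries had Ezh1 at 5.06, 24.1, 15, 6.93 and 0.646 RPKM, the last in the only number-last control. JAK2V617F libraries ran from 0.452 to 22.9 (median 4.65), Ezh2 loss libraries from 0.191 to 11.3 (median 6.97) and double-mutant libraries from 5.19 to 45.3 (median 15.2). All 7 double-mutant libraries lay above the JAK2V617F median and 2 of 7 above its highest library, but each double-mutant title was number-first. The fitted mean effect of Ezh2 loss on Ezh1 was 0.30 (SE 0.43, 95% confidence interval -0.58 to 1.18, limma adjusted p = 0.911), and the exact permutation test gave 0.26 within title style (two-sided p = 0.539, not adjusted) and 0.36 within title style and JAK2 background (p = 0.644). Ezh1 differed by 0.38 for Ezh2 loss against control (adjusted p = 0.98), by 0.22 for the double mutant against JAK2V617F (adjusted p = 0.971) and by 0.62 when the double mutant was set against control (adjusted p = 0.959), all by limma. Its interaction was -0.15 (SE 1.1, adjusted p = 0.994). Number-first libraries alone put the mean effect at -0.12 (SE 0.50), so the direction was not stable. The interval allows a rise of 1.18 or a fall of 0.58 on this scale.

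By title style, Ezh1 was at 14.9 ± 10.7 RPKM in number-first (n = 15) and 4.33 ± 4.15 in number-last (n = 11) libraries. All 15 number-first libraries had at least 5.06 RPKM and lay above the number-last median of 3.52, and 7 of 15 lay above the highest number-last library (11.3). The style term was 1.76 (SE 0.56, 95% confidence interval 0.61 to 2.92, limma adjusted p = 0.0389), and Ezh1 was the only 1 of 10 subunits to pass in this comparison, in which 11% of all 12116 tested genes passed and the median gene was at 0.17. The call did not hold without any 1 of 9 libraries (control replicates 2, 3 and 5, JAK2V617F replicates 3, 6 and 7, and Ezh2 loss replicates 1, 3 and 5), whose removal left style terms of 1.46 to 1.86 and adjusted p of 0.0534 to 0.178. With the number of detected genes as a covariate the term was 0.63 (adjusted p = 0.762). That number was 9698 to 11007 in number-first and 9223 to 10065 in number-last libraries. In 4 libraries, each number-last, Ezh1 was under 1 RPKM, at 33 reads in control, 16 in JAK2V617F, and 7 and 13 in Ezh2 loss, against a median of 553 reads over all libraries. Smart-Seq2 reads carry no molecular identifiers here, so a read is not a counted molecule.

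**Figure D3:**
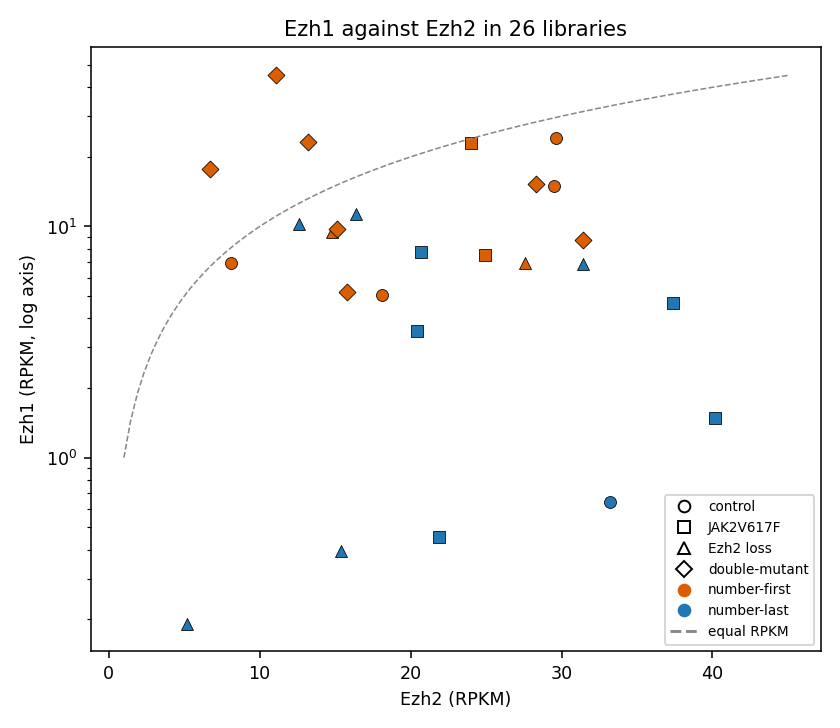
Ezh1 (vertical axis, RPKM, log axis) against Ezh2 (horizontal axis, RPKM) in 26 libraries; shapes give the group, colours the title style, and the dashed line marks equal RPKM. Only 3 libraries, all double-mutant, lie above the line, and the 4 libraries with Ezh1 under 1 RPKM are all number-last.

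As a share of Ezh1 plus Ezh2 RPKM, Ezh1 made up 1.91% to 46.1% (median 33.7%) in control and 2.02% to 48.8% (median 14.7%) in JAK2V617F libraries. It made up 2.5% to 45% (median 20.2%) in Ezh2 loss and 21.8% to 80.4% (median 39.3%) in double-mutant libraries. Ezh1 exceeded Ezh2 in 3 of 26 libraries, which were double-mutant replicates 2, 5 and 6 at 63.8%, 80.4% and 72.5%. Number-first control libraries had the same median share as the double mutant, 39.3%, and a highest share of 46.1%. The median share was 39% in number-first and 11% in number-last libraries. The size of the share depends on the lengths used for both genes.

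Eed, the subunit that reads the finished mark, was the most abundant and did not pass in any genotype comparison. Control libraries had 81.4, 70.7, 49.9, 56.6 and 95 RPKM, and all 7 double-mutant libraries (24.3 to 64.7, median 54.6) lay below the control median, though 4 of 7 overlapped the controls. Eed was at -0.62 in the double mutant relative to control (SE 0.32, limma adjusted p = 0.831), and its mean Ezh2 loss effect was -0.28 (SE 0.22, adjusted p = 0.789). Ezh2 loss libraries split by title style, at 89.9 and 111 RPKM in the 2 number-first and 21.8 to 43.6 in the 5 number-last libraries. Over all groups the style term of Eed was 0.72 (SE 0.28, adjusted p = 0.105).

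Suz12, the scaffold, was lowest in double-mutant libraries. Control libraries had 6.23, 15.3, 8.23, 4.84 and 23.3 RPKM, JAK2V617F libraries 5.92 to 24.2 (median 11.7), Ezh2 loss libraries 5.28 to 26.7 (median 16.9) and double-mutant libraries 0.759 to 13.7 (median 5.12). In the double mutant 5 of 7 libraries lay below the lowest JAK2V617F library and 3 of 7 below the lowest control. With title style fitted, Suz12 was at -0.82 for the double mutant against JAK2V617F (SE 0.56, limma adjusted p = 0.773) and at 0.049 in Ezh2 loss relative to control (SE 0.56, adjusted p = 0.996). Its style term, -0.73 (SE 0.45, adjusted p = 0.35), pointed to lower values in number-first libraries, the style of every double-mutant library.

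Rbbp4, the histone-binding subunit, ran from 17.5 to 56.6 RPKM over 26 libraries. All 7 JAK2V617F and all 7 Ezh2 loss libraries lay below the control median of 44.4, while double-mutant libraries ran from 24.9 to 56.6 (median 42.2), 4 of 7 above the highest JAK2V617F library. Its interaction was 1.02 (SE 0.46, limma adjusted p = 0.795, unadjusted p = 0.0334), and its mean Ezh2 loss effect was 0.056 (SE 0.18, 95% confidence interval -0.31 to 0.42).

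**Figure D4:**
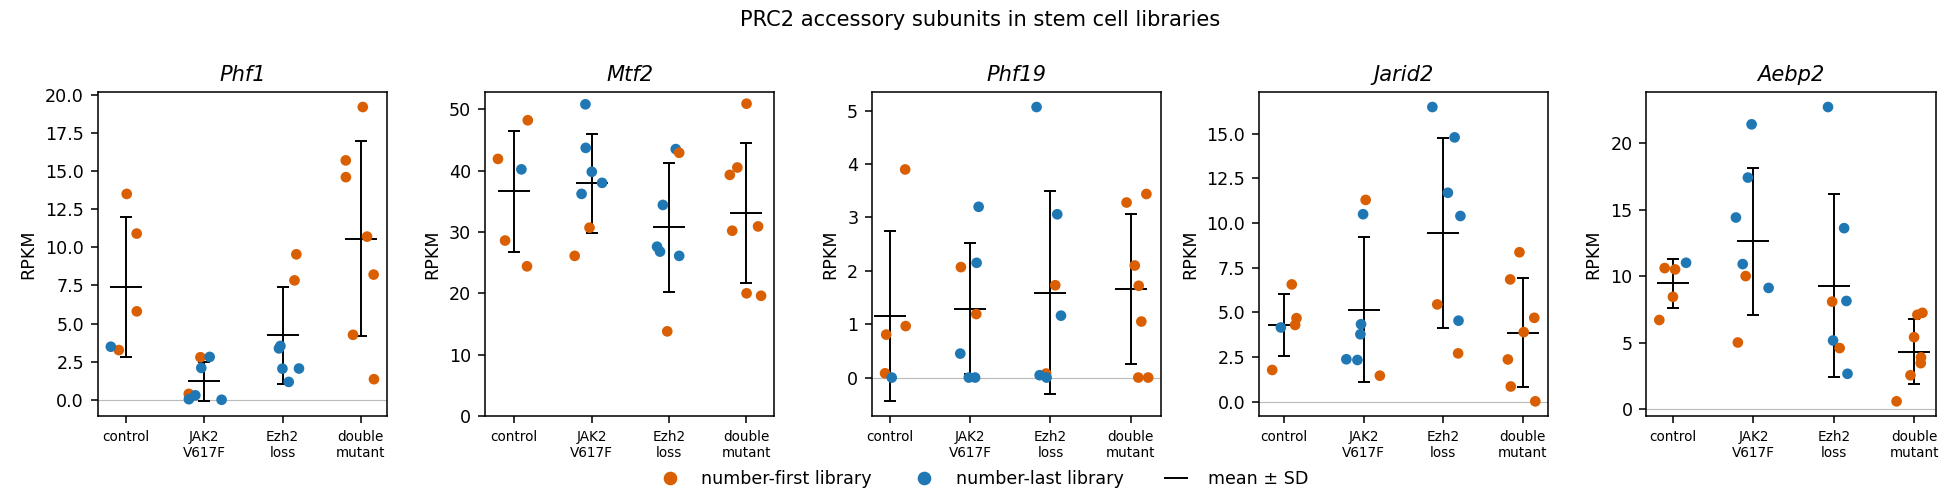
Level of the 5 accessory PRC2 subunits in RPKM (vertical axis) in each of 26 libraries, by group (horizontal axis); points are libraries coloured by title style, and lines are the mean ± SD of a group. All 7 JAK2V617F libraries have Phf1 at or under 2.81, below the lowest control at 3.26, and all 7 double-mutant libraries have Aebp2 at or under 7.24. Every double-mutant library is number-first, and the share of all genes that separate groups in this way was not counted.

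Phf1, a Polycomb-like protein whose Tudor domain binds methylated lysine 36 of histone H3, was lowest in JAK2V617F and highest in double-mutant libraries. Control libraries had 10.9, 5.8, 13.5, 3.26 and 3.48 RPKM. JAK2V617F libraries ran from 0 to 2.81 (median 0.388), Ezh2 loss libraries from 1.17 to 9.54 (median 3.37) and double-mutant libraries from 1.35 to 19.2 (median 10.7). All 7 JAK2V617F libraries lay below the lowest control, and 6 of 7 double-mutant libraries lay above the highest JAK2V617F library. Counts of this kind, here and for the other subunits, were made without a share over all genes beside them. Title style was uneven here, with 4 of 5 control, 2 of 7 JAK2V617F and 7 of 7 double-mutant libraries number-first. With title style in the model Phf1 was at -1.49 for JAK2V617F against control (SE 0.58, limma adjusted p = 0.999, unadjusted p = 0.016). It was at 1.65 for the double mutant against JAK2V617F (SE 0.59, 95% confidence interval 0.45 to 2.86, limma adjusted p = 0.4, unadjusted p = 0.00879). Without the style term the latter was 2.34 and passed (adjusted p = 0.0185), as did the Phf1 interaction (3.06, adjusted p = 0.0318, against 1.88 and 0.816 with the term). Number-first libraries alone gave 2.05 for the double mutant against JAK2V617F (adjusted p = 0.66), with 2 JAK2V617F libraries at 0.388 and 2.79 RPKM and 7 double-mutant libraries. The mean Ezh2 loss effect on Phf1 was 0.71 (SE 0.36, adjusted p = 0.601), and with the neutrophil markers as a covariate it was 1.46 (SE 0.35, adjusted p = 0.186), while the interaction was 0.69 (adjusted p = 0.931).

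Phf1 itself was low in number-last titles, at 1.9 ± 1.36 RPKM (n = 11) against 8.53 ± 5.62 (n = 15) in number-first titles, with a style term of 0.96 (SE 0.47, limma adjusted p = 0.217). Phf1 reads were few, with a median of 111 a library and 0, 1 and 6 in 3 JAK2V617F libraries. On the opposite strand, exons of Cuta cover 1370 bases or 39.3% of the 3486 Phf1 exon bases in GENCODE M21. The values implied a length of 2429 bases for Phf1. How reads of the overlap were handled is not given, and their part in the Phf1 values was not tested. Cuta was far higher, at a mean of 211 RPKM, and did not pass for JAK2V617F against control (-0.12, SE 0.23, adjusted p = 0.999). It was at 135 RPKM or more in every JAK2V617F library, including those with 0, 1 and 6 Phf1 reads.

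Aebp2, a zinc finger protein that joins Jarid2 in its type of PRC2, had the smallest unadjusted p of the 10 subunits for Ezh2 loss. Control libraries had 10.6, 8.44, 10.5, 6.7 and 11 RPKM, JAK2V617F libraries 5.01 to 21.4 (median 10.9), Ezh2 loss libraries 2.66 to 22.7 (median 8.08) and double-mutant libraries 0.59 to 7.24 (median 3.89). All 7 double-mutant libraries lay below the medians of control and of JAK2V617F, and 5 of 7 lay below the lowest control. Every double-mutant library was number-first, however. By title style Aebp2 was at 6.28 ± 2.99 RPKM in number-first (n = 15) and 12.4 ± 6.3 in number-last (n = 11) libraries. All 15 number-first libraries lay below the number-last median. Its style term was -0.56 (SE 0.405, limma adjusted p = 0.439). The mean effect of Ezh2 loss was -0.78 (SE 0.31, 95% confidence interval -1.41 to -0.15, limma adjusted p = 0.465, unadjusted p = 0.0177). Aebp2 was at -1.02 for the double mutant both against control (SE 0.46, adjusted p = 0.77) and against JAK2V617F (SE 0.51, adjusted p = 0.622). Number-first libraries alone gave -0.63 for the mean effect (SE 0.45, adjusted p = 0.843) and -1.07 in the double mutant relative to control (SE 0.48, adjusted p = 0.736). With the neutrophil markers as a covariate the mean effect was -0.86 (adjusted p = 0.604).

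Jarid2, the DNA-binding partner of Aebp2, had its highest levels in Ezh2 loss libraries, at 2.71 to 16.5 RPKM (median 10.4), against 4.3, 1.78, 6.57, 4.68 and 4.16 in control. JAK2V617F libraries ran from 1.46 to 11.3 (median 3.78), and 2 of 7, at 10.5 and 11.3, lay above the highest control. In Ezh2 loss 4 of 7 libraries lay above the highest control, all of them number-last with 404 to 38200 RPKM of neutrophil markers. Double-mutant libraries ran from 0.0249 (3 reads) to 8.37 (median 3.9). Jarid2 was at 0.62 in Ezh2 loss relative to control (SE 0.60, limma adjusted p = 0.942) and at 0.26 for the mean effect (SE 0.38, adjusted p = 0.91), which was 0.67 (SE 0.43, adjusted p = 0.781) with the neutrophil markers as a covariate.

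Mtf2, the most abundant Polycomb-like protein, ran from 13.8 to 50.9 RPKM, with similar medians in control (40.2) and JAK2V617F (38) and lower ones in Ezh2 loss (27.6) and double-mutant libraries (30.9). Its mean Ezh2 loss effect was -0.22 (SE 0.19, 95% confidence interval -0.62 to 0.17, limma adjusted p = 0.812). Phf19, a Polycomb-like protein of similar domain order, stayed between 0 and 5.07 RPKM, with a mean effect of 0.17 (SE 0.38, adjusted p = 0.948). At 0 to 296 reads a library, a Phf19 difference smaller than its interval (-0.60 to 0.94) was not detectable.

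Residuals after group and title style were used to see which subunits varied together from library to library. Over 26 libraries Ezh2 and Ezh1 were unrelated in this sense (Pearson r = 0.094, permutation p = 0.649, Spearman rho = -0.069, p = 0.739). The highest value with Ezh2 was that of Suz12 (r = 0.44, permutation p = 0.0257, adjusted over 9 relations 0.134; rho = 0.39, p = 0.0491, adjusted 0.442), and none of the 9 passed after adjustment. Values of about that size were also found for Phf19, in the opposite direction (r = -0.42, permutation p = 0.0324, adjusted 0.134; rho = -0.31, p = 0.128), and for Aebp2 (r = 0.40, permutation p = 0.0447, adjusted 0.134; rho = 0.27, p = 0.179). Without the 2 libraries farthest in Ezh2 these were -0.14 for Phf19 and 0.21 for Aebp2, while Suz12 was at 0.48. The Suz12 value was 0.59 in number-first and 0.17 in number-last libraries. Over all 45 pairs of subunits r ran from -0.45 to 0.44 with a median of 0.04, and 28 pairs were above 0. The points share library depth and composition, so these values describe the libraries.

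Among 7901 tested genes with a mean of at least 5 RPKM, those most like Ezh2 across the 26 libraries were Gins2 (r = 0.65), Txnrd2 (0.63), Syngr2 (0.62), Rrp15 (0.62) and Cct2 (0.62). Those most like Ezh1 were Adap1 (0.77), Spg20 (0.77), Mark3 (0.73), Atad1 (0.72) and Slc48a1 (0.71). The 5 genes named for each are the top of a ranking and carry no test.

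Other genes of the pathway were read from the same fit, and none passed in any genotype comparison. Of 5 other PRC2 accessory proteins 3 were in the table: Rbbp7, Lcorl and Lcor. For the mean Ezh2 loss effect Rbbp7, a close relative of Rbbp4, was at -0.20 (limma adjusted p = 0.618) and Lcorl at 0.11. Lcor reached 1 RPKM in 3 of 12 libraries with Ezh2 intact and 6 of 14 with Ezh2 loss. It met the minimum of 5 libraries only through the latter, so no fitted value is given for it. Of 16 H3K27 demethylases and other factors that oppose Polycomb, 12 were in the table and 11 were tested. For the mean effect 0 of 11 passed, with 7 above and 4 below 0 and a median of 0.30. Over all 12116 tested genes 49% were above 0, with a median of -0.008. The histone H2A deubiquitinase Bap1 had the smallest p (0.70, SE 0.28, adjusted p = 0.483), at a mean of 15.1 RPKM in the 12 libraries with Ezh2 intact and 28.0 in the 14 with Ezh2 loss. Next came the H3K27 demethylase Kdm6b (0.48, adjusted p = 0.653), the H3K36 methyltransferase Setd2 (0.48, adjusted p = 0.723) and the acetyltransferase Crebbp (0.43, adjusted p = 0.753). The Kdm6b mean joins opposite directions, -0.315 for Ezh2 loss against control and 1.277 for the double mutant against JAK2V617F (limma adjusted p = 0.97 and 0.37). By title style Kdm6b (-1.54, adjusted p = 0.00289) and the chromatin remodeller Arid1a (-0.95, adjusted p = 0.0196) were lower in number-first libraries.

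Textbook Polycomb-repressed genes were mostly low or listed at 0. Of the 20 genes listed 9 reached 1 RPKM in at least 1 library, Cdkn1c and Hmga2 in all 26, and 4 were tested. The other 11 never reached 1 RPKM, and 7 of those were listed at 0 in all 26 (Cdkn2a, Cdkn2b, Gata6, Hoxd13, Hoxb13, Wt1 and Fgf5). A listed 0 does not show that a gene was silent, since Hba-a1 and Hba-a2 were also at 0 in every library, while Beta-s, another globin gene, reached 1 RPKM in 25. The fetal RNA-binding gene Lin28b reached 1 RPKM in 7 of 14 libraries with Ezh2 loss and 1 of 12 with Ezh2 intact, at means of 1.97 and 0.212 RPKM. It met the minimum of 5 libraries only through those with Ezh2 loss and did not pass, so no test value is given for it. Igf2bp2, another RNA-binding gene, was at 7.22 and 3.18 RPKM in those 2 sets (0.97, SE 0.37, limma adjusted p = 0.446). Hmga2, a chromatin protein of fetal HSCs, was at -0.15 (adjusted p = 0.921), and the cell cycle inhibitor Cdkn1c was at -0.092 (adjusted p = 0.965) but was higher in number-first libraries (2.44, adjusted p = 9.03e-05). A gene kept only because it reached 1 RPKM in one set of libraries had to differ, so no count over these genes is taken as support.

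E2F and replication genes, which accompany Ezh2 in dividing cells, were all tested (16 of 16). For the mean Ezh2 loss effect 0 passed. E2f2 reached 1 RPKM in 2 of 12 libraries with Ezh2 intact and 6 of 14 with Ezh2 loss. It met the minimum of 5 libraries only through those with Ezh2 loss, so no count by direction is given. The smallest p belonged to the replicative helicase subunit Mcm3 (0.46, SE 0.30, limma adjusted p = 0.718), followed by cyclin A2 (Ccna2, 1.04, SE 0.69, adjusted p = 0.723), the helicase subunit Mcm5 (0.74, SE 0.51, adjusted p = 0.737) and the proliferation marker Mki67 (0.71, SE 0.50, adjusted p = 0.74).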

How the data were processed

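The authors deposited 1 table of RPKM values, with 23416 genes and 26 library columns, of which 0 stayed without a sample. The tools were STAR 2.4.2a, Subread 1.5.0 and SAMtools 0.1.19, and the build mm10/GRCm38, per the submitters' processing notes. The sources used here do not give the annotation, read length, strand setting or gene lengths. Groups follow the genotype label, and replicates are numbered by accession order.

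Depth and member reads were recovered from whole-read steps in the RPKM values (316 of 325 library pairs coherent, tolerance 0.02), and no equal non-zero values pointed to repeated libraries. The 12116 genes that reached an RPKM of 1 in 5 or more libraries were fitted as log2(RPKM + 1) with limma 3.58.1 in R 4.3.3, with 4 group means, a title style term, and eBayes with trend and robust. Each comparison was two-sided with Benjamini-Hochberg adjustment over all tested genes, at a threshold of 0.05. All groups share 1 estimate of the spread. The added 1 compresses differences of genes near 0. The mean Ezh2 loss effect averages Ezh2 loss minus control and double-mutant minus JAK2V617F. The double mutant has no number-last library, so its style correction rests on the other groups. RPKM held no counts for a count test as the main result. The fit was tested on simulated data. Correlations used 100000 permutations.

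All 10 subunits are named. From each gene list, members that passed in a comparison are named, or up to 4 by smallest p in the mean Ezh2 loss comparison; likeness names 5 genes for Ezh2 and for Ezh1. The members and lists were chosen with earlier results of these data known. Alternatives for title style, libraries, pseudocount (0.1 and 5), filter, scaling, weights, covariates and each library left out were tried, and a permutation within JAK2 background was added after seeing the data. Coordinates are from GENCODE M21 and promoters from RefSeq. The separate values of some marker genes are not reported here.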

Additional observations from a re-analysis of the deposited data

Results flagged for a closer look

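Among the 40 sets of a subunit in 1 group, 2 held a library far from the others by Dixon's test, and chance marks about 1 in 20 such sets. Ezh1 in JAK2V617F was at 22.9 RPKM in replicate 3, a number-first library with 17700 RPKM of neutrophil markers, with the next library at 7.74 (gap over range 0.675, critical value 0.568). Phf19 in control was at 3.9 RPKM in replicate 4, also number-first, with the next library at 0.965 (gap over range 0.753, critical value 0.71).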

How the results depend on the processing

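No paired analysis was made. Within a title style the groups compared by limma share at most 1 title number. Number-last JAK2V617F and Ezh2 loss titles share more. These groups enter limma's mean Ezh2 loss effect with opposite signs, and they were set against each other in the permutation within title style. A pairing by these numbers was not tested in either. Nothing in the labels ties equal numbers in different groups, or a number in one style to the same number in the other. Over 29 gene values, 17 alternatives and 26 libraries left out in turn, the call or direction changed mainly with title style and for Ezh1, and causes were not tested. All adjusted p-values are limma's.

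In number-first libraries alone the mean Ezh2 loss effect turned for Ezh1 (-0.12), Eed (0.10), Phf19 (-0.23) and Jarid2 (-0.27), and 0 genes passed. In the same libraries Ezh2 loss against control was 0.08 for Ezh2 and -0.37 for Ezh1, the Ezh1 interaction was 0.49, and 0 genes passed for the double mutant against JAK2V617F or control. In number-last libraries, with 1 control library that both comparisons share and that is assumed to vary like the others, Ezh2 in JAK2V617F against control was -0.29, and the genes that passed numbered 22 there and 22 for Ezh2 loss against control, with no count of those in common. Without the style term Ezh1 was at -0.53 for Ezh2 loss against control, -0.52 for JAK2V617F against control and 2.02 for the interaction. Genes passing without it numbered 274 for the double mutant against JAK2V617F, 215 for the interaction, 1 for JAK2V617F against control and 0 for the double mutant against control. The Ezh1 interaction was 0.082 with a pseudocount of 5, 0.024 with quantile normalization and 0.12 with array weights, and the Ezh2 style term was 0.042 with array weights. The Ezh1 style call did not hold with a pseudocount of 5 (0.97, adjusted p = 0.0655), no low-value filter (1.76, 0.0669), TPM (1.92, 0.0521), quantile normalization (1.34, 0.0918) or detected genes as a covariate (0.63, 0.762), and 500 genes passed for style in the last, against 1331.

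Genes passing for the mean Ezh2 loss effect numbered 1 with the neutrophil covariate. For the double mutant against JAK2V617F they numbered 7 with TPM, detected genes or the neutrophil covariate and 12 with array weights. For the double mutant against control they numbered 2 without a filter, with quantile normalization or with detected genes, 3 with RPKM of at least 1 in every library, 4 with TPM, 6 with array weights, and 0 with the neutrophil covariate or only the groups compared. Ezh2 loss against control had 2 with only the groups compared, JAK2V617F against control 1 with a pseudocount of 0.1, and the interaction 1 without a filter.

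With each library left out in turn, 3 to 13 genes passed for the mean Ezh2 loss effect (11 to 13 without any of JAK2V617F replicate 3, Ezh2 loss replicates 3 and 6 and double-mutant replicate 6; 3 or 4 without any of control replicates 1, 3 and 4 and JAK2V617F replicates 1, 5 and 6). The range was 0 to 1 for Ezh2 loss against control, JAK2V617F against control and the interaction, 3 to 8 for the double mutant against JAK2V617F, 0 to 6 for the double mutant against control and 988 to 1375 for style. Left-out ranges that crossed 0 were -0.014 to 0.131 for the mean effect on Rbbp4 (control replicate 1, JAK2V617F replicates 3 and 7), -0.054 to 0.661 for Ezh1 in Ezh2 loss against control and -0.037 to 0.677 in JAK2V617F against control (both control replicate 5), and -0.038 to 0.555 for Ezh1 in the double mutant against JAK2V617F (JAK2V617F replicate 1, double-mutant replicate 5). For Ezh2 they were -0.011 to 0.567 in JAK2V617F against control (control replicate 4), -0.70 to 0.17 for the interaction (Ezh2 loss replicate 4) and -0.24 to 0.18 for style (6 libraries). The Ezh1 interaction ran from -0.54 to 0.49 (control replicate 5, JAK2V617F replicate 3, double-mutant replicate 7). The mean Ezh2 loss effect on Ezh2 itself stayed between -0.74 and -0.43, and on Aebp2 between -0.90 and -0.65.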
